A study of Mus with 12 samples.

Results

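The mitochondrial genome transcripts are the 37 genes of the table whose symbols begin with mt-, out of 25247 genes in all. They are 2 ribosomal RNA genes, 13 protein genes and 22 transfer RNA genes, and all 37 lie on the mitochondrial chromosome MT. Each interval in the table is that of a gene on MT in the RefSeq annotation of GRCm38.p6.

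The series has 4 groups of 3 whole blood libraries, all from female BALB/c mice that were bought at 6 weeks of age. Solvent mice received the acetone and olive oil vehicle. DNCB mice were sensitised with 1% 2,4-dinitrochlorobenzene on the dorsal skin and right ear and challenged with 0.5%, which gives an atopic dermatitis-like skin inflammation. The scMSC and scivMSC mice received the same DNCB course and human umbilical cord mesenchymal stem cells (MSC), 2000000 cells per dose, in 100 μL under the skin or as 50 μL under the skin and 50 μL into the tail vein. Blood was taken on day 30 in every group. The comparisons address how blood transcripts differ with the inflammation and with each MSC route.

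The mitochondrial genome is a small circle of DNA that is transcribed from both strands as long precursor RNAs. Transfer RNAs lie between most of the other genes, and their excision releases the ribosomal RNAs and the messenger RNAs, so that levels of single transcripts depend on processing and stability as well as on transcription. All proteins made from it are subunits of the respiratory chain or of ATP synthase. The proteins that copy, transcribe and translate it are encoded in the nucleus. Mature red cells have lost their mitochondria, whereas reticulocytes, platelets and leukocytes still carry them.

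Library totals ranged from 52179764 to 65139421 estimated counts, and haemoglobin genes took 83.2% ± 3.10 (SD, n = 3) of them in Solvent, 81.2% ± 2.40 in DNCB, 85.6% ± 0.933 in scMSC and 87.3% ± 2.13 in scivMSC. Between 11806 (scivMSC replicate 2) and 17350 (Solvent replicate 3) genes reached 4 counts. Marker lists of blood cells also moved with the groups, given here as summed FPKM (fragments per kilobase of gene, relative to the mapped fragments of the library) in the order Solvent, DNCB, scMSC and scivMSC. The 14 neutrophil genes ranged over 223 to 448, 7120 to 11200, 588 to 730 and 254 to 760, and the 10 monocyte genes over 64.1 to 193, 411 to 666, 87.1 to 96.4 and 80.8 to 112. A sum can follow a few abundant genes. Of those tested, 12 of 12 neutrophil but only 3 of 9 monocyte genes were called higher in DNCB than in Solvent. In both lists 0 were lower, and of all genes 15.6% were called higher and 4.87% lower. The 11 T cell genes ranged over 130 to 220, 55.0 to 67.1, 60.0 to 91.6 and 21.9 to 44.1, the 10 B cell genes over 93.0 to 284, 28.1 to 71.6, 27.8 to 42.9 and 9.93 to 17.9, and the 6 NK cell genes in the table over 30.8 to 38.1, 11.4 to 17.6, 6.62 to 17.3 and 5.60 to 14.7. The 11 platelet genes ranged over 394 to 622, 617 to 852, 748 to 973 and 774 to 911, and the 11 erythroid genes in the table over 4030 to 5110 in all groups. Most of the erythroid sum was Alas2, an enzyme of haem synthesis, with group means of 4293 to 4625. Gata1, a transcription factor of erythroid cells and megakaryocytes, had a mean FPKM of 2.30, 2.17, 8.20 and 9.55 in the 4 groups. Of the 9 erythroid genes tested, 1 was called higher and 0 lower in scivMSC than in DNCB with total counts, 7 were higher with haemoglobin left out of the totals and 9 with TMM scaling, against 1.43%, 6.17% and 20.6% of all genes. No marker gene in the table was at 0 in all libraries. Between DNCB and Solvent, the marker genes with the largest called log2 changes were Ngp (6.76), Lyz2 (2.25), Gp1bb (2.00), Cd8a (-1.78), Pax5 (-2.48) and Gzma (-1.45), of which Pax5 had reached the expression filter only through the Solvent libraries. For scMSC minus DNCB they were Ly6g (-4.36), Lyz2 (-2.65), Gp1bb (-1.22) and Gata1 (1.91), and for scivMSC minus DNCB they were Retnlg (-4.46), Csf1r (-4.23), Trbc1 (-1.52), Ighd (-2.11), Ncr1 (-1.49) and Gata1 (2.13). In scivMSC against DNCB, 12 of 12 neutrophil, 8 of 9 monocyte, 3 of 11 T cell and 2 of 4 NK cell genes tested were called lower. So were 9 of 9 B cell genes without Pax5, against 62.0% of all genes. With TMM scaling the lower counts were 12, 4, 0, 0 and 0 in the same order, against 18.9% of all genes. In that setting 1 monocyte, 1 T cell and 1 NK cell gene were called higher, against 20.6%. The part of these differences in the results on mitochondrial genes was not tested, and fewer cells of a type and less RNA per cell cannot be told apart in whole blood.

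The mitochondrial genome gave about 1% of all counts in each group, and this share did not separate the groups. Solvent libraries had 1.11%, 0.859% and 0.852%, and DNCB libraries 0.923%, 1.01% and 0.836%. The scMSC libraries had 1.10%, 0.998% and 1.15%, and the scivMSC libraries 1.15%, 0.827% and 1.06%. The ranges overlapped in all 6 pairs of groups. Group means were 0.939% ± 0.145 (SD, n = 3) in Solvent, 0.924% ± 0.0878 in DNCB, 1.08% ± 0.0769 in scMSC and 1.01% ± 0.166 in scivMSC. The F statistic over the groups had p = 0.41 in an exact permutation test with 15400 arrangements. The 95% Wilson interval of a share was narrow at this depth, 0.825% to 0.830% in scivMSC replicate 2, and covers counting error only.

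Within this total, rRNA genes held more counts in both MSC groups, while the means of the protein genes were highest in Solvent and DNCB. The 2 rRNA genes held 0.527%, 0.480% and 0.426% of library counts in Solvent and 0.518%, 0.533% and 0.435% in DNCB. They held 0.722%, 0.718% and 0.814% in scMSC and 0.673%, 0.547% and 0.741% in scivMSC. Every library of both MSC groups lay above every Solvent and DNCB library. The 13 protein genes held 0.461% ± 0.105 (SD, n = 3) in Solvent, 0.427% ± 0.0438 in DNCB, 0.331% ± 0.0516 in scMSC and 0.358% ± 0.103 in scivMSC. The ratio of rRNA to protein gene counts was therefore 1.06 ± 0.187 in Solvent, 1.16 ± 0.107 in DNCB, 2.31 ± 0.365 in scMSC and 1.90 ± 0.451 in scivMSC, and its lowest value in an MSC library was 1.42, in scivMSC replicate 1. The split by class was chosen after the values were seen, so these shares and ratios are given without a test. How RNA was selected for the libraries is not stated in the sources used here. The part of that step in the rRNA counts was not tested. The 22 tRNA genes together held only 212 to 492 counts per library.

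**Figure D1:**
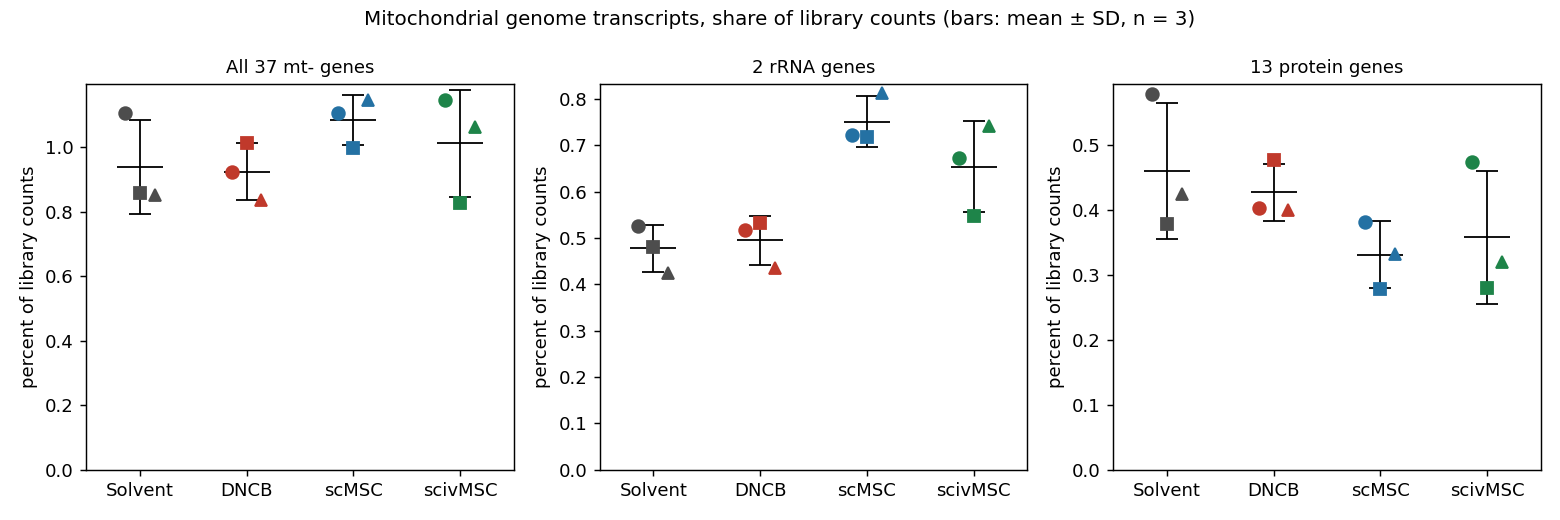
Percent of library counts (vertical axes, from 0) from all 37 mitochondrial genes, the 2 rRNA genes and the 13 protein genes in the 4 groups; circles, squares and triangles are replicates 1, 2 and 3, and bars give mean ± SD. The total lies between 0.827% and 1.15% in all groups, while the rRNA share of every MSC library is at least 0.547% and that of every other library at most 0.533%.

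Haemoglobin dominates these libraries, so the mitochondrial share was also taken of the counts that remain without it. It was 5.44%, 5.93% and 5.44% in Solvent, 5.21%, 4.69% and 4.86% in DNCB, 7.32%, 7.46% and 7.72% in scMSC, and 7.61%, 7.52% and 8.89% in scivMSC. DNCB lay below Solvent, and both MSC groups lay above both, with overlap only between the 2 MSC groups. Group means were 5.60% ± 0.279 (SD, n = 3), 4.92% ± 0.264, 7.50% ± 0.206 and 8.01% ± 0.766, and the same exact permutation test returned p = 0.00026. For 3 libraries against 3 the smallest possible exact two-sided p is 0.1, and the 5 pairs without overlap reached it, with an adjusted p of 0.12 over the 6 pairs. The rRNA genes held 2.88% ± 0.385, 2.64% ± 0.247, 5.21% ± 0.376 and 5.21% ± 0.895 in the same order, and the protein genes 2.73% ± 0.119, 2.27% ± 0.0578, 2.28% ± 0.226 and 2.79% ± 0.317. The denominator differed too: there were 8922035 to 12858063 counts outside haemoglobin in the Solvent and DNCB libraries, 7877293 to 8479300 in scMSC and 5843407 to 8171378 in scivMSC.

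Per length, the rRNAs were the most abundant members. Mean FPKM over the 12 libraries was 2272 for mt-Rnr1 and 2178 for mt-Rnr2, and mt-Rnr1 was the higher of them in 5 of 12 libraries, so their order was not fixed. The cytochrome c oxidase and ATP synthase genes followed, with mt-Co1 at 1080, mt-Co2 at 639, mt-Atp6 at 591, mt-Atp8 at 538 and mt-Co3 at 447. Cytochrome b of complex III (mt-Cytb) had 190. The 7 subunits of complex I, NADH dehydrogenase, were lowest, with mt-Nd4 at 140, mt-Nd1 at 108, mt-Nd4l at 85.9, mt-Nd2 at 62.6, mt-Nd5 at 57.3, mt-Nd6 at 52.7 and mt-Nd3 at 42.2. mt-Co1 exceeded mt-Co2, and mt-Co3 exceeded mt-Cytb, in 12 of 12 libraries, whereas mt-Nd1 exceeded mt-Nd4l in 6 of them. All protein genes but mt-Nd6 lie on the plus strand of MT, and mt-Atp8 with mt-Atp6 and mt-Nd4l with mt-Nd4 overlap, so reads in the shared bases can be assigned to either. The sources used here do not state whether counting used strand, and without strand mt-Nd6 cannot be told apart from RNA of the opposite strand.

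**Figure D2:**
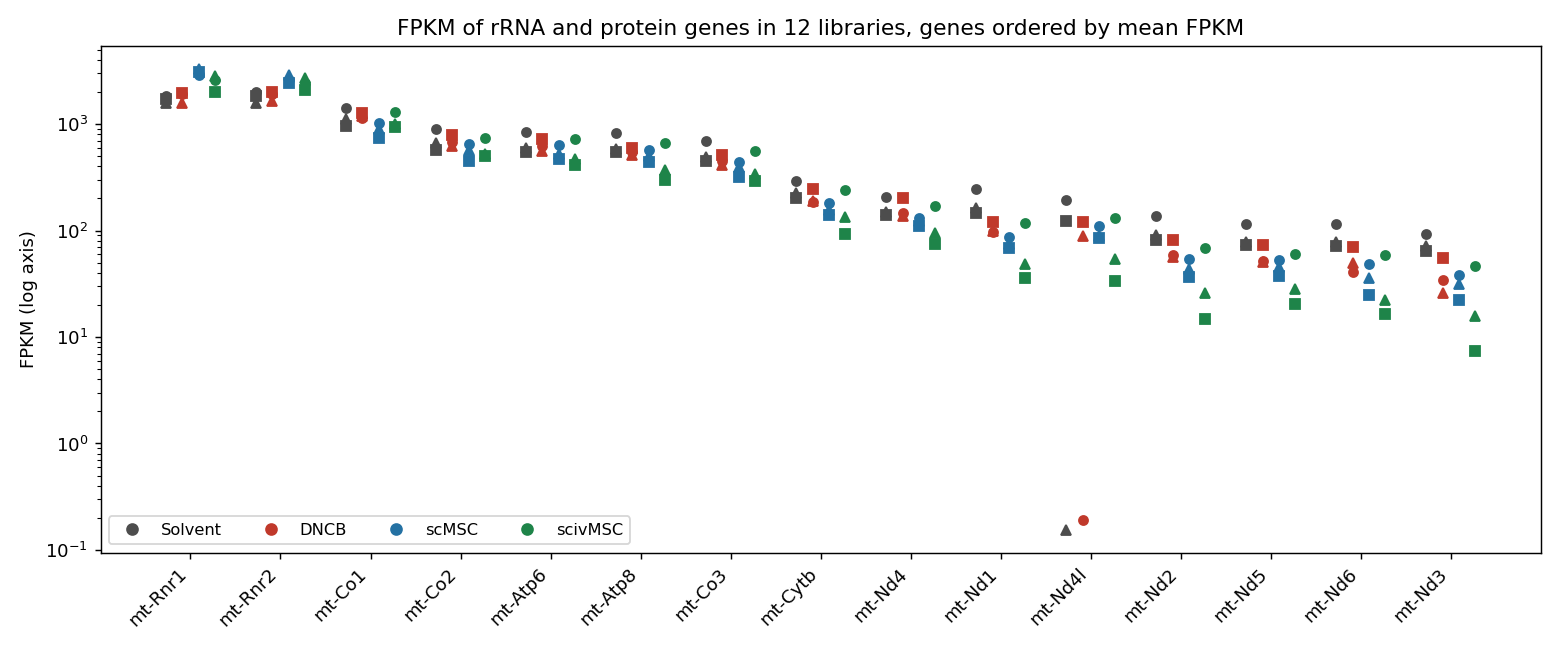
FPKM on a log axis for the 2 rRNA and 13 protein genes, ordered by mean FPKM, in 12 libraries coloured by group; circles, squares and triangles are replicates 1, 2 and 3. The rRNA genes are highest in the MSC groups. Of the complex I genes on the right, mt-Nd1, mt-Nd3 and mt-Nd6 are higher in every Solvent library than in any other. The other complex I genes overlap between Solvent and DNCB, and 2 libraries have mt-Nd4l at 0.192 and 0.155.

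The 2 rRNAs of the mitochondrial ribosome were higher in both MSC groups than in DNCB. mt-Rnr1, the small-subunit rRNA at positions 70 to 1024 of MT, had an FPKM of 1837, 1724 and 1570 in Solvent, 1922, 1961 and 1589 in DNCB, 2860, 3084 and 3294 in scMSC, and 2584, 2017 and 2824 in scivMSC. mt-Rnr2, the large-subunit rRNA at positions 1094 to 2675, had 2016, 1830 and 1589 in Solvent, 1926, 1980 and 1634 in DNCB, 2608, 2448 and 2890 in scMSC, and 2442, 2077 and 2701 in scivMSC. For both genes the MSC groups did not overlap with Solvent or DNCB, and DNCB overlapped with Solvent. On the log2 scale of edgeR with total-count scaling, mt-Rnr1 exceeded DNCB by 0.74 ± 0.16 (SE, adjusted p = 0.00261) in scMSC, and by 0.44 ± 0.16 (adjusted p = 0.0206) in scivMSC. The values for mt-Rnr2 were 0.51 ± 0.15 (adjusted p = 0.0154) and 0.38 ± 0.14 (adjusted p = 0.0296). Against Solvent mt-Rnr1 was higher by 0.84 (adjusted p = 0.0260) in scMSC and 0.53 (adjusted p = 0.00719) in scivMSC, and mt-Rnr2 by 0.54 (adjusted p = 0.0925, not passing) and 0.41 (adjusted p = 0.0214). None of these folds exceeded 2, the size required for a call, but of all 5527 genes tested only 1.65% in scMSC and 2.88% in scivMSC had an adjusted p under 0.05 and were higher than in DNCB, and only 0.344% and 4.11% were so against Solvent. The comparisons share the DNCB or the Solvent libraries and are not independent. TMM scaling gave log2 values for mt-Rnr1 of 1.44 and 2.10 against DNCB and for mt-Rnr2 of 1.20 and 2.06. It raised the median of all genes from -0.63 to 0.06 in scMSC and from -1.53 to 0.04 in scivMSC against DNCB. Values already above 0 could not change direction under such a shift, so their direction with TMM is no separate evidence.

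The balance of the 2 rRNAs also differed. The ratio of mt-Rnr1 to mt-Rnr2 counts was 0.550, 0.568 and 0.597 in Solvent, 0.602, 0.598 and 0.587 in DNCB, 0.662, 0.760 and 0.688 in scMSC, and 0.639, 0.586 and 0.631 in scivMSC. The scMSC libraries lay above all others. This ratio was chosen after the values were seen and has no test.

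Of the 28 members that passed the filter, 5 subunit genes of complex I and 2 tRNA genes were called lower in scivMSC than in Solvent, and none was called higher, against 59.2% of all tested genes called lower and 2.59% called higher. No rRNA, cytochrome b, cytochrome c oxidase or ATP synthase gene was among the 7. mt-Nd1, at positions 2751 to 3707, had an FPKM of 244, 145 and 163 in Solvent, 97.6, 120 and 98.1 in DNCB, 87.3, 68.8 and 75.0 in scMSC, and 117, 35.7 and 48.7 in scivMSC. The Solvent libraries stood above all 9 others. Its log2 fold change in scivMSC against Solvent was -1.46 ± 0.36 (SE; edgeR adjusted p = 0.00238).

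The other 4 called complex I genes were also lower in every scivMSC library than in any Solvent library. mt-Nd2 had 137, 81.1 and 90.6 in Solvent, 59.3, 82.2 and 56.8 in DNCB, 53.7, 36.8 and 43.6 in scMSC, and 69.3, 14.8 and 26.1 in scivMSC, with a log2 fold change of -1.49 ± 0.43 (adjusted p = 0.00629). mt-Nd3, the shortest of them, had 91.9, 64.1 and 72.4, then 34.5, 55.2 and 26.2, then 38.5, 22.1 and 31.7, then 46.6, 7.35 and 15.7, with -1.71 ± 0.51 (adjusted p = 0.00816). In every one of them scivMSC replicate 1 was above both other scivMSC replicates. mt-Nd5 had 116, 73.0 and 78.5 in Solvent and 59.9, 20.3 and 28.0 in scivMSC, with -1.31 ± 0.35 (adjusted p = 0.00399), and mt-Nd6, the 1 protein gene on the minus strand, had 116, 71.0 and 77.6 and 58.8, 16.6 and 22.4, with -1.44 ± 0.43 (adjusted p = 0.00801). Without scivMSC replicate 1, 12 members in place of 7 were called lower for scivMSC and Solvent, 10 in place of 2 for scivMSC and DNCB, 4 in place of 0 for scMSC and Solvent, and 2 in place of 0 for scivMSC and scMSC. The shares of all genes called lower were then 67.6%, 70.6%, 8.68% and 52.9%, and the median log2 change of all genes was -1.89, -1.97, -0.59 and -1.28. Without scivMSC replicate 2, 1 member was lower for scivMSC and DNCB and 4 for scMSC and Solvent, against 55.3% and 12.9% of all genes.

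Over the 4 groups together, 9 of the 28 members passed the F test of edgeR at an adjusted p under 0.05, against 72.3% of all tested genes, and 19 passed with TMM scaling, against 70% of all. In the other 5 comparisons few members were called. In DNCB against Solvent 0 of 28 members were called in either direction by edgeR, against 15.6% of all tested genes higher and 4.87% lower. At an unadjusted p under 0.05 there was 1 member in each direction, DESeq2 called 0, and limma on log2(FPKM + 1) called 1 higher. By an edgeR adjusted p under 0.05 alone, total counts gave no member. By that rule mt-Nd1, mt-Nd2, mt-Nd3, mt-Nd5, mt-Nd6 and mt-Tl1 were lower and mt-Tr higher with TMM scaling. With haemoglobin left out, mt-Nd1, mt-Nd3, mt-Nd5 and mt-Nd6 were lower. The shares of all genes by that rule are not given here. In scMSC against DNCB edgeR called 0 in either direction (1.27% of all genes higher and 24.9% lower), with 2 members higher and 1 lower at an unadjusted p under 0.05 and 0 called by DESeq2 and limma. In scMSC against Solvent edgeR called 0 (0.326% higher and 0.326% lower of all genes), while 4 members were higher and 6 lower at an unadjusted p under 0.05, DESeq2 called 2 lower, and limma called 2 higher and 4 lower. In scivMSC against scMSC edgeR called 0 (0.344% higher and 30.4% lower of all genes), no member had an unadjusted p under 0.05, and DESeq2 and limma called 0. In scivMSC against DNCB 2 tRNA genes were called lower and 0 members higher, against 62.0% and 1.43% of all genes, with 2 members higher at an unadjusted p under 0.05 and 0 higher by DESeq2 and limma. The percentages beside these counts belong to the edgeR call rule. Shares of all genes at an unadjusted p under 0.05 are not given here, so the member counts at that cut cannot be set against all genes.

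The median over all genes differed between comparisons as well. With total-count scaling the median log2 change over all 5527 genes was -1.47 for scivMSC and Solvent, -1.53 for scivMSC and DNCB, -0.63 for scMSC and DNCB, and 0.06 for DNCB and Solvent. The median over the 13 protein genes was -0.55, -0.41, -0.38 and -0.25 in the same order, so protein genes lay above the median of all genes in the 3 comparisons with an MSC group and below it in DNCB against Solvent. TMM scaling brings the median of all genes near 0. None of the 9 calls made with total counts then remained, none was called the other way, and other members were called higher. For scivMSC and DNCB, 12 members were called higher and 0 lower, against 20.6% and 18.9% of all genes, and for scivMSC and Solvent the counts were 9 and 0, against 22.4% and 13.4%. Both rRNAs were among the higher members in these 2 comparisons, as were mt-Co1, mt-Co2 and mt-Atp6. For scMSC and DNCB, 2 members, both rRNAs, were higher and 0 lower, against 8.74% and 12.3%. For scMSC and Solvent the counts were 4 and 0, against 7.29% and 1.21%, and for scivMSC and scMSC 3 and 0, against 13.1% and 4.92%. mt-Co1 was at 1.38 and mt-Nd1 at -0.11 on the log2 scale in scivMSC against Solvent with TMM, and at -0.12 and -1.46 with total counts. The 5 complex I genes were not called with TMM, where mt-Nd2, mt-Nd3 and mt-Nd6 were at -0.20, -0.49 and -0.11 and mt-Nd5 at 0.05. In DNCB against Solvent TMM called mt-Tr higher and mt-Nd3 and mt-Tl1 lower, against 16.1% and 11.5% of all genes.

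**Figure D3:**
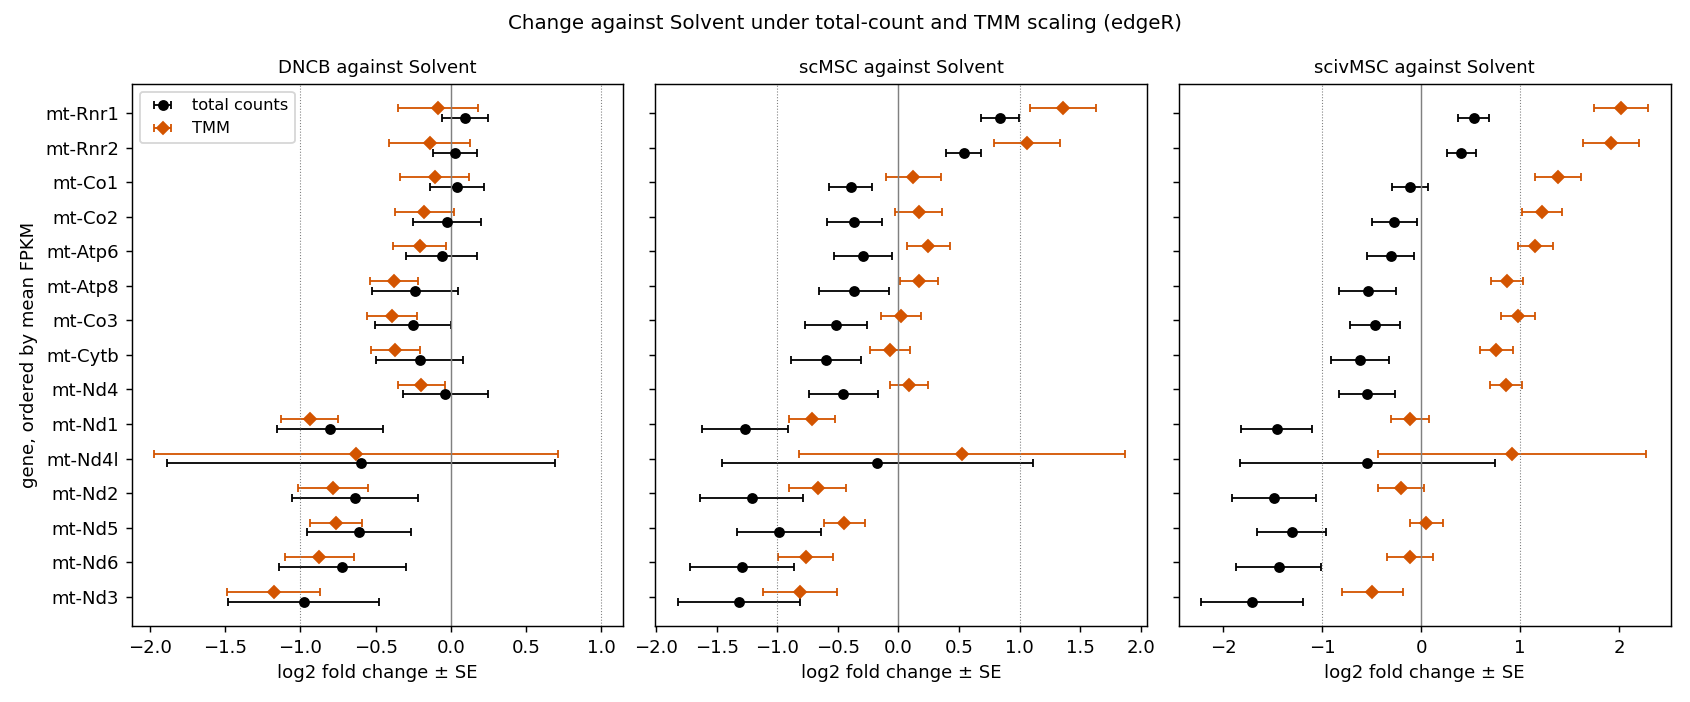
Log2 fold change ± SE against Solvent in edgeR (horizontal axes) for the rRNA and protein genes with total-count scaling (circles) and TMM scaling (diamonds); dotted lines mark a 2-fold change. In scivMSC the protein genes lie from -1.71 to -0.12 with total counts and from -0.49 to 1.38 with TMM, with the complex I genes mt-Nd1, mt-Nd2, mt-Nd3, mt-Nd5 and mt-Nd6 lowest under both.

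In the 3 comparisons with Solvent, protein genes with a lower mean FPKM had more negative log2 changes. The Spearman correlation of mean FPKM with the log2 change was 0.90 for scivMSC and Solvent, 0.87 for DNCB and Solvent, and 0.71 for scMSC and Solvent, over 13 genes that share the same libraries and were part of the mean. Without mt-Nd4l it was 0.93, 0.86 and 0.90 over 12 genes. It was 0.84 for scivMSC and scMSC, 0.74 for scivMSC and DNCB, and only 0.31 for scMSC and DNCB. Without mt-Nd4l these 3 values were 0.85, 0.92 and 0.43, so the relation was not limited to the comparisons with Solvent. This is a description of these genes, which are neighbours on 1 chromosome and not independent, and the comparisons share libraries.

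Because the genes share a chromosome, they were also set against each other within a library. The ratio of the 7 complex I genes to the 3 complex IV genes (mt-Co1, mt-Co2 and mt-Co3) was 0.307, 0.290 and 0.257 in Solvent, 0.188, 0.242 and 0.191 in DNCB, 0.206, 0.216 and 0.204 in scMSC, and 0.208, 0.104 and 0.133 in scivMSC. Every Solvent library lay above every other library, and scivMSC replicates 2 and 3 lay below all others. The ratio includes mt-Nd4l, which was near 0 in Solvent replicate 3 and DNCB replicate 1. It does not depend on the scaling of libraries and was chosen after the values were seen, so it has no test. In edgeR with the summed mitochondrial counts as library size, 9 members were called lower and 0 higher for scivMSC and Solvent, against 64.1% and 2.21% of all genes, and they included mt-Nd1, mt-Nd2, mt-Nd3, mt-Nd5 and mt-Nd6. In scMSC against Solvent 6 were called lower, the same 5 complex I genes and mt-Te, and mt-Tr was called higher, against 28.0% and 1.36%. mt-Tr was not called once any 1 Solvent library or scMSC replicate 2 was left out, with 0 members then higher. With the summed protein gene counts as library size none of these 6 was called in scMSC against Solvent.

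**Figure D4:**
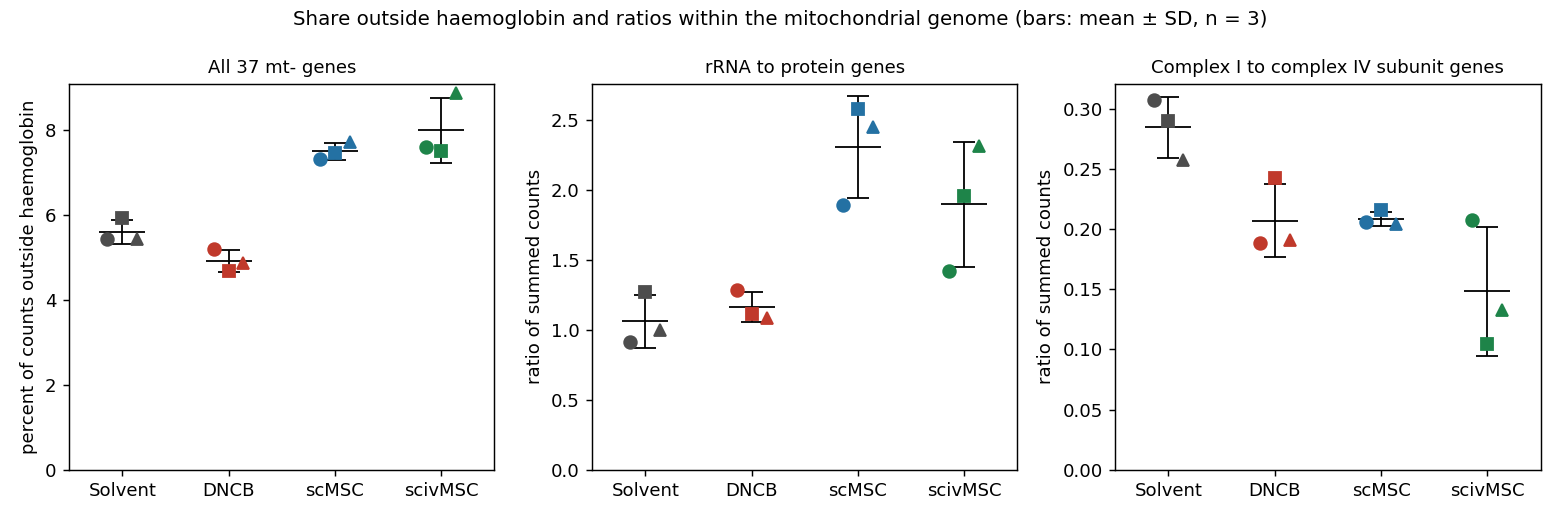
Mitochondrial share of counts outside haemoglobin in percent, ratio of rRNA to protein gene counts, and ratio of complex I to complex IV gene counts (vertical axes from 0) in the 4 groups; circles, squares and triangles are replicates 1, 2 and 3, and bars give mean ± SD. The share is above 7.3% in all MSC libraries and at most 5.93% elsewhere, and the last ratio is above 0.25 only in Solvent.

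mt-Nd4 and mt-Nd5, both of complex I and both read from the plus strand, differed in how they varied. mt-Nd4 had an FPKM of 208, 139 and 148 in Solvent, 147, 200 and 136 in DNCB, 131, 110 and 123 in scMSC, and 170, 74.0 and 94.8 in scivMSC, and its groups overlapped apart from scMSC against Solvent and DNCB. The ratio of mt-Nd4 to mt-Nd5 counts was 1.35, 1.44 and 1.42 in Solvent, 2.15, 2.06 and 2.03 in DNCB, 1.86, 2.23 and 2.03 in scMSC, and 2.14, 2.76 and 2.56 in scivMSC, above Solvent in all 9 other libraries. No test was run on it, as it was chosen after the values were seen.

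With total-count scaling, the subunits of complexes III, IV and V varied less between groups than mt-Nd1, mt-Nd2, mt-Nd3, mt-Nd5 and mt-Nd6. mt-Co1, the catalytic subunit of cytochrome c oxidase, had an FPKM of 1405, 955 and 1126 in Solvent, 1134, 1260 and 1189 in DNCB, 1028, 744 and 897 in scMSC, and 1291, 929 and 1006 in scivMSC. Its log2 change in scMSC against DNCB was -0.44 ± 0.18 (edgeR adjusted p = 0.0815), and the 2 groups did not overlap. mt-Co2, which receives electrons from cytochrome c, ranged over 572 to 903 in Solvent and 451 to 650 in scMSC, and mt-Co3 over 451 to 696 and 320 to 440. mt-Atp6 and mt-Atp8, subunits of the membrane part of ATP synthase, ranged over 547 to 837 and 545 to 818 in Solvent and 410 to 722 and 300 to 670 in scivMSC. mt-Cytb, the catalytic subunit of complex III, had 291, 200 and 225 in Solvent, 186, 243 and 191 in DNCB, 182, 139 and 156 in scMSC, and 240, 93.3 and 134 in scivMSC. None of these 6 genes was called in any of the 6 comparisons with total-count scaling, and their log2 changes in scivMSC against Solvent ran from -0.62 to -0.12.

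Transcripts of tRNA genes were near the limit of detection. Of the 22, 13 passed the filter, and the other 9 had at most 5 counts in any library. mt-Tp was the most abundant, with 160, 89 and 97 counts in Solvent, 115, 152 and 161 in DNCB, 95, 136 and 143 in scMSC, and 143, 144 and 138 in scivMSC. It was not called with total counts, and TMM scaling called it higher in scivMSC than in each other group. The 2 tRNA genes called lower in scivMSC against DNCB and Solvent were mt-Ta, for alanine, and mt-Tn, for asparagine, neighbours on the minus strand at positions 5018 to 5086 and 5089 to 5159. mt-Ta had 29, 17 and 12 counts in Solvent, 13, 13 and 20 in DNCB, 13, 5 and 6 in scMSC, and 4, 1 and 3 in scivMSC. mt-Tn had 50, 27 and 16, then 20, 23 and 27, then 20, 7 and 6, then 6, 2 and 4. Every scivMSC library was below every Solvent and DNCB library for both genes. On summed counts per total, mt-Ta was 6.16-fold higher in Solvent than in scivMSC (95% interval 2.93 to 14.9), and mt-Tn 6.59-fold (3.60 to 13.2), intervals of counting error only. The log2 fold change of mt-Ta was -2.58 ± 0.80 (edgeR adjusted p = 0.00974), and that of mt-Tn was -2.70 ± 0.78 (adjusted p = 0.00676). With TMM they were -1.17 and -1.25 and were not called. mt-Tr, for arginine, had its lowest counts in Solvent, with 14, 8 and 8 counts in Solvent, 29, 31 and 20 in DNCB, 28, 37 and 27 in scMSC, and 16, 15 and 28 in scivMSC. Its log2 change in DNCB against Solvent was 1.50 ± 0.61 (adjusted p = 0.0971), which is not a call, and the groups did not overlap. The counts of mt-Td, for aspartate, ranged over 4 to 12 in Solvent, 15 to 23 in DNCB, 16 to 28 in scMSC and 8 to 15 in scivMSC, and those of mt-Tk, for lysine, over 4 to 5, 6 to 14, 8 to 9 and 5 to 14. DNCB did not overlap with Solvent for either gene, with log2 changes of 1.20 ± 0.67 (adjusted p = 0.225) and 1.28 ± 0.74 (adjusted p = 0.246), neither a call. mt-Tl1, for leucine, had 48 to 88 counts in Solvent, 23 to 39 in DNCB, 29 to 39 in scMSC and 10 to 32 in scivMSC, and mt-Te, for glutamate, 47 to 70, 17 to 47, 16 to 26 and 7 to 35. Neither was called with total counts. The other 5 that passed were mt-Ti, mt-Tm, mt-Tw, mt-Tc and mt-Ty, which had between 0 and 22 counts in every library and no call.

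mt-Nd4l had library-specific values. It held 3874 and 2375 counts in Solvent replicates 1 and 2 and 4 in Solvent replicate 3, and 4 in DNCB replicate 1 against 2286 and 1665 in DNCB replicates 2 and 3. It held between 551 and 2233 in the 6 MSC libraries. mt-Nd4, which it overlaps, showed no such gap in those 2 libraries. Without them the mean FPKM was 159 in Solvent, 105 in DNCB, 94.8 ± 14.1 (SD, n = 3) in scMSC and 72.7 ± 51.1 in scivMSC. Its standard error was 1.29 on the log2 scale, and it was called in none of the 6 comparisons.

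A cluster of 7 predicted genes at 24611535 to 24616197 of chromosome 1 holds near-identical copies of part of the mitochondrial genome, as background knowledge, and was added to the description after its values were seen. Reads from the copied part can be split with it, so the counts of the protein genes in that part are uncertain. Its summed counts were 3219, 6012 and 1844 in Solvent, 674, 7873 and 16094 in DNCB, 1192, 4200 and 4286 in scMSC, and 2965, 4983 and 15816 in scivMSC. The spread within a group was larger than that between groups, with a highest to lowest ratio of 23.9 inside DNCB. Relative to the summed counts of all mitochondrial protein genes it was between 0.288% and 9.21%. As it copies only part of the genome, the value for a single copied gene can be larger. With these counts added to the mitochondrial share, the total was 0.855% to 1.11% in Solvent and 0.837% to 1.15% in scivMSC.

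**Figure D5:**
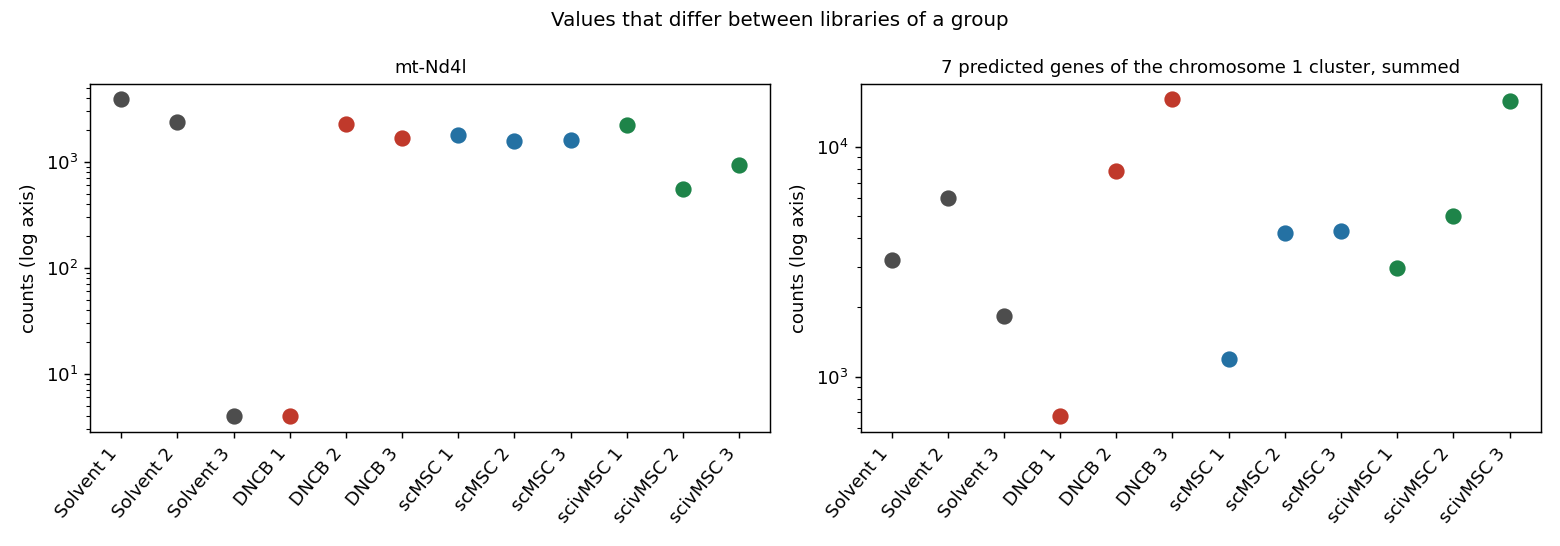
Counts of mt-Nd4l and summed counts of the 7 predicted genes on chromosome 1 in 12 libraries, on log axes, coloured by group. mt-Nd4l is at 4 counts in Solvent replicate 3 and DNCB replicate 1, and the cluster is highest in DNCB replicate 3 and scivMSC replicate 3.

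Nuclear genes that serve the mitochondrial genome were mostly too low to test. Of 40 genes of transcription, replication and RNA processing in the table, 4 passed the filter. In scivMSC against DNCB 0 were called higher and 2 lower, against 1.43% and 62.0% of all genes, with a median of -1.42 against -1.53 for all genes. Angel2, a nuclease-family member, was the lowest of the called at -2.15 ± 0.45 (edgeR adjusted p = 0.00064). Polrmt, the mitochondrial RNA polymerase, Tfam, its DNA-packaging factor, and Lrpprc, which stabilises its messenger RNAs, did not pass. Polrmt had a mean FPKM of 0.668 ± 0.198 (SD, n = 3) in Solvent, 0.241 ± 0.0614 in DNCB, 0.433 ± 0.116 in scMSC and 0.145 ± 0.0364 in scivMSC. Tfam had 1.12 ± 0.471, 0.523 ± 0.122, 0.428 ± 0.167 and 0.198 ± 0.139, and Lrpprc 0.656 ± 0.195, 0.251 ± 0.0842, 0.262 ± 0.101 and 0.170 ± 0.0954. Solvent had the highest mean of all 3.

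Of 16 translation factors, 4 passed the filter and all 4 were called lower in scivMSC against DNCB, where 62.0% of all genes were, with a median of -2.26 against -1.53 for all genes. Tufm, the mitochondrial elongation factor, was the lowest of these at -2.49 ± 0.57 (adjusted p = 0.00122). Of 20 genes of protein import, 11 passed, with 1 called lower in scMSC and 7 in scivMSC against DNCB and 0 higher, beside 24.9% and 62.0% of all genes called lower. Tomm22, a receptor of the outer membrane, was at -1.27 ± 0.41 and -1.96 ± 0.42 in the 2 comparisons (adjusted p = 0.0292 and 0.000764). Of 9 regulators of mitochondrial biogenesis, 4 passed, with 2 and 4 called lower beside the same shares of all genes, and Gabpa, the DNA-binding subunit of nuclear respiratory factor GABP, was at -1.31 ± 0.47 and -2.66 ± 0.49 (adjusted p = 0.0464 and 0.000231). With TMM scaling the scivMSC against DNCB counts were 1 higher and 0 lower for transcription and processing, 0 and 1 for translation, 1 and 0 for import, and 0 and 1 for biogenesis, against 20.6% and 18.9% of all genes.

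The list of surveillance and mitophagy held 13 tested genes, of which Bnip3 and Atg7 had reached the expression filter only through the DNCB libraries. Of the other 11, 2 were called higher and 0 lower in DNCB against Solvent, against 15.6% and 4.87% of all genes. None was called higher against DNCB in either MSC group, and 1 was lower in scMSC and 3 in scivMSC, against 24.9% and 62.0% of all genes. With TMM scaling 2 were higher and 0 lower in scMSC, against 8.74% and 12.3%, and 7 were higher and 1 lower in scivMSC, against 20.6% and 18.9%. The TMM counts for DNCB and Solvent were 1 and 1. Bnip3, a mitophagy receptor, had an FPKM of 0.705, 0.663 and 0.382 in Solvent, 2.07, 4.23 and 2.31 in DNCB, 0.406, 0.132 and 0.262 in scMSC, and 0.457, 0.0594 and 0.117 in scivMSC. All DNCB libraries were above all others, and because it passed the filter through them these values are given without a test. Bnip3l, the receptor that clears mitochondria from maturing red cells, had a mean FPKM of 253 ± 39.7 (SD, n = 3) in Solvent, 242 ± 42.0 in DNCB, 221 ± 39.2 in scMSC and 314 ± 15.6 in scivMSC and was called in no comparison with total counts. With TMM it was called higher in scivMSC against DNCB at 2.06 (adjusted p = 0.000143).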

How the data were processed

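Whole blood RNA was measured in 12 libraries, 3 in each of 4 groups, grouped by the titles of the labels. The authors deposited 1 table for blood with an estimated count and an FPKM for each library, in 24 columns, and all were used. The submitters' processing notes list Bowtie 0.12.2, HISAT2 2.0, StringTie 1.3.0 and the build mm8, without their roles. Coordinates are as the table gives them, and 99.9% of 21467 other genes matched by symbol overlapped their RefSeq interval in GRCm38.p6. The strand setting and the RNA selection step of the libraries are not given in the sources used here. The deposited counts are whole numbers, but of the values from 1 to 12, 29.0% hold 4, 16.0% hold 8 and 9.75% hold 12, for an unknown reason. The labels number the libraries of a group without naming the mouse, so p-values measure only the spread between these samples.

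Tested were the 5527 genes that reached an FPKM of 1 in 3 or more of 12 libraries. The main test was the quasi-likelihood test of edgeR 4.0.16 in R 4.3.3, all 12 libraries in a single fit, scaled by total counts, with Benjamini-Hochberg adjustment over all tested genes. A call was an adjusted p under 0.05 and a fold over 2. The fit with the summed mitochondrial counts as library size was run on the whole table rather than on the mitochondrial genes alone, as the design had it, so that the adjustment covers all genes. DESeq2 1.42.0 with total-count size factors and limma 3.58.1 were alternatives, limma with the deposited FPKM on the log2(FPKM + 1) scale and a pseudocount of 1 or 0.1. On simulated counts for DNCB against Solvent over 5527 genes, edgeR recovered 191 of 200 genes changed 8-fold with 8 false calls. Class shares, ratios within a library and the chromosome 1 cluster were chosen after seeing the data, as were list counts without genes that reached the filter in 1 group only. Total shares were compared by exact permutation of libraries (SciPy 1.17.1).

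Every mitochondrial gene is a member: rRNA and protein genes are described by name, tRNA genes by counts and, by name, those that passed the filter. From each list of nuclear genes and of cell markers come the called genes of largest change in each direction in 3 comparisons, and Polrmt, Tfam, Lrpprc and Bnip3l whatever their values. The members and lists were chosen with earlier results of these data known. The list genes Fastkd4, Calcoco2, Klra8 and Ahsp were not analysed here. Sequences are not shown, as no sequence file was used here.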

Additional observations from a re-analysis of the deposited data

How the results depend on the processing

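None of the 9 calls made with total counts remained with TMM scaling or with DESeq2 size factors in edgeR, none was called the other way, and other members were called. With both scalings the members called higher and lower were 1 and 2 for DNCB and Solvent, 2 and 0 for scMSC and DNCB, 12 and 0 for scivMSC and DNCB, 3 and 0 for scivMSC and scMSC, and 4 and 0 for scMSC and Solvent. With DESeq2 size factors the shares of all genes were 16.6% and 10.6%, 8.09% and 12.9%, 20.4% and 19.3%, 14% and 4.51%, and 7.13% and 1.25%. For scivMSC and Solvent the counts were 9 and 0 with TMM and 10 and 0 with DESeq2 size factors (23% and 12.7% of all genes), in place of 0 and 7. For scivMSC and DNCB, 12 of 13 protein genes were below 0 with total counts, and all 13 were above 0 with TMM, from 0.58 to 1.55. With TMM and then DESeq2 size factors, the members that turned above 0 included mt-Tl1 1.25 and 1.23, mt-Co1 1.49 and 1.48, mt-Co2 1.40 and 1.39, mt-Atp8 1.25 and 1.24, mt-Atp6 1.36 and 1.35, mt-Co3 1.37 and 1.36, mt-Tr 1.39 and 1.38, mt-Nd4 1.05 and 1.04, and mt-Cytb 1.12 and 1.11. The complex I genes mt-Nd1, mt-Nd5 and mt-Nd6 were also higher at an edgeR adjusted p under 0.05 with both scalings. For scivMSC and Solvent, all 13 protein genes were below 0 with total counts, and 9 were above 0 with TMM. Those that turned above 0 included mt-Co1 1.38 and 1.41, mt-Co2 1.22 and 1.25, mt-Atp6 1.15 and 1.18, and mt-Nd5 0.052 and 0.076. With both scalings mt-Co3, mt-Atp8, mt-Cytb and mt-Nd4 were also higher at an edgeR adjusted p under 0.05, with mt-Co3 at 1.01 with DESeq2 size factors. These scalings set the median of all genes near 0. With haemoglobin left out of the totals, the counts higher and lower were 0 and 1 for DNCB and Solvent (15.3% and 10.6% of all genes), 1 and 0 for scMSC and DNCB (3.60% and 17.9%), 1 and 2 for scivMSC and DNCB (6.17% and 46.5%), 2 and 2 for scMSC and Solvent (3.26% and 3.91%), and 1 and 6 for scivMSC and Solvent (6.21% and 49.0%). The F test passed 19 members with TMM.

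For the other settings the cause was not tested. limma on log2(FPKM + 1) called 1 higher and 0 lower for DNCB and Solvent (12.8% and 3.69% of all genes), 0 and 3 for scivMSC and DNCB (0.633% and 35.6%), 2 and 4 for scMSC and Solvent (0.796% and 3.02%), and 0 and 9 for scivMSC and Solvent (1.23% and 30.7%). With a pseudocount of 0.1 it called 3 and 0 (17.0% and 6.31%), 0 and 4 (1.50% and 64.4%), 1 and 0 (0.470% and 0.543%), and 2 and 10 (2.79% and 61.4%) in the same order, and 1 lower for scivMSC and scMSC (35.2%). DESeq2 called 1 lower for scivMSC and DNCB (62.9%), 2 lower for scMSC and Solvent (8.21%) and 7 lower for scivMSC and Solvent (60.2%). With no filter and with a mean FPKM of at least 5, 0 were lower for scivMSC and DNCB (22.9% and 46.3%), and the latter, which leaves out mt-Ta and mt-Tn, called 1 higher for DNCB and Solvent (23.9%). The 6 libraries of scMSC and Solvent alone gave 4 lower (18.4%). With the summed protein gene counts as library size, 1 member was higher for scMSC and DNCB (3.71%), 4 higher and 0 lower for scMSC and Solvent (5.70% and 1.05%), and 1 higher and 8 lower for scivMSC and Solvent (5.95% and 51.5%).

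Leaving out each library in turn, the members called lower ranged from 1 to 10 for scivMSC and DNCB, 0 to 2 for scivMSC and scMSC, 0 to 4 for scMSC and Solvent, and 7 to 12 for scivMSC and Solvent. The highest counts came without scivMSC replicate 1, and the lowest for scivMSC and DNCB without scivMSC replicate 2, which also gave 4 for scMSC and Solvent. Relative to the summed mitochondrial counts the ranges were 0 to 1 higher for DNCB and Solvent, 0 to 2 lower for scMSC and DNCB, 2 to 10 lower for scivMSC and DNCB, 0 to 1 lower for scivMSC and scMSC, 0 to 1 higher and 4 to 7 lower for scMSC and Solvent, and 0 to 1 higher and 8 to 12 lower for scivMSC and Solvent. With all libraries that fit called 28.0% of all genes lower for scMSC and Solvent and 64.1% for scivMSC and Solvent. The median log2 change of all genes also moved with the library left out, from -1.55 to -2.00 for scivMSC and DNCB. Shares of all genes for each library left out of that fit are not given here. The permutation p ranged from 0.184 to 0.634 for the share of library counts and from 0.00013 to 0.000844 for the share without haemoglobin. The shares with the chromosome 1 cluster, and the class shares and ratios, were chosen after seeing the data.

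Replicate numbers did not pair the libraries: over 18 same-numbered pairs the correlation of deviations ran from -0.286 to 0.156, and 3 pairs exceeded 0.1. With the replicate block, 3 members were lower for scivMSC and DNCB and 8 for scivMSC and Solvent (64.3% and 60.1% of all genes), and the F test passed 9. Low counts limit what could be seen in the tRNA genes.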
